A study of Homo sapiens with 4 samples.

Results

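This section describes 9 genes of the MHC class II antigen presentation pathway, out of 56655 gene symbols in the count tables: the class II chain genes HLA-DRA, HLA-DRB1, HLA-DPA1, HLA-DPB1, HLA-DMA, HLA-DMB and HLA-DQB1, the invariant chain gene CD74 and the class II transactivator gene CIITA. The genes were taken by symbol and were chosen by a rule that knew their shFOXK2 and shCtrl values in these libraries, so those values are given as a description without a test. RNA-seq counts were available for 4 libraries of OVCAR5, an established ovarian cancer cell line labelled as high grade serous with ascites as its source and used at a low passage. Cells of both groups had been stably transduced with a lentiviral short hairpin vector and selected with puromycin. The control group (shCtrl, n = 2 libraries) carried a nontargeting hairpin, and the knockdown group (shFOXK2, n = 2 libraries) carried a hairpin against FOXK2, a forkhead transcription factor. The study's legends call this hairpin shFOXK2-2, so the group rests on 1 hairpin, and the labels name no treatment with a cytokine. The study counts its n as biological replicates, but the labels name no separate cultures for the 2 libraries of a group, and p-values measure only the spread between these libraries.

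MHC class II molecules are pairs of an alpha and a beta chain that display peptides from endosomes to CD4+ T cells. HLA-DR, HLA-DQ and HLA-DP are the pairs that reach the cell surface, while HLA-DM acts in the endosome and exchanges the placeholder peptide for others. CD74 holds the groove closed and guides new class II molecules to the endosome. CIITA does not bind DNA by itself: it is recruited to class II and CD74 promoters by the RFX, CREB and NF-Y factors that sit on the neighbouring X and Y boxes. Most cells without a role in antigen presentation make little CIITA unless interferon gamma is present, although some epithelial tumors express class II genes.

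To show the promoter elements that the members are known to share, the letters of X and Y boxes were searched in the 250 bases before each RefSeq transcription start (assembly GRCh38.p14). An X box half-site was written CNAGNNAC on the strand of the gene, letters chosen after the members' sequences had been seen, and a Y box was written ATTGG on either strand (CCAAT when read on the other). RefSeq promoter entries matched 7 members. HLA-DRA and CIITA had no entry. Stretches around the matches are given 5′ to 3′ on the strand of the gene, with the X half-site and the Y box in capitals.
HLA-DRB1, chr6:32589885-32589934, minus strand: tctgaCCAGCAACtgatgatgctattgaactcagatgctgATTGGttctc
HLA-DQB1, chr6:32666736-32666785, minus strand: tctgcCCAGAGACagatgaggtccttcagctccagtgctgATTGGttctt
HLA-DMA, chr6:32953167-32953217, minus strand: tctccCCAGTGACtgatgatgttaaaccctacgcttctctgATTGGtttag
CD74, chr5:150412954-150412998, minus strand: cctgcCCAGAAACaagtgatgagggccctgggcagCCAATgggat
HLA-DMB, chr6:32941094-32941123, minus strand: tttacCTAGTAACtgatgatgctaggctga
HLA-DPA1, chr6:33073726-33073755, minus strand: tttacCCAGCAACagagaatgtcagctcta
HLA-DPB1, chr6:33075846-33075900, plus strand: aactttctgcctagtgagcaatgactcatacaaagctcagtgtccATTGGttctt

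An X half-site followed by a Y box at a spacing of 20 to 30 bases was found for HLA-DRB1, HLA-DQB1, HLA-DMA and CD74. The X half-sites of these genes began 81, 123, 115 and 83 bases upstream of the start, respectively, and the Y boxes began 46, 88, 79 and 53 bases upstream. The same arrangement was present in 110 of 35116 RefSeq promoters (0.313%), whereas an X half-site alone was in 18.0% and a Y box alone in 32.0%. As the letters were chosen with the members' sequences known, these shares do not measure how unusual the members are. HLA-DMB had an X half-site 90 bases upstream without a Y box at that spacing. HLA-DPB1 showed the reverse, a Y box 99 bases upstream without an exact match to the X half-site letters. Its stretch holds ctagtgag ahead of the Y box, which differs from CNAGNNAC at the last base alone. HLA-DPA1 has 2 RefSeq starts, and an X half-site lay 101 bases before one of them. The letters TGTTTAC, a core recognised by forkhead factors, occurred on either strand in 2.98% of promoters and in 0 of the 7 members' entries. A match of letters does not show that a factor was bound in these cells.

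Library totals ran from 14284005 to 21950873 counts, and a floor of 3 counts in a library corresponded to between 0.134 and 0.21 CPM (counts scaled to a common library size with TMM factors). FOXK2, the gene the hairpin targets, had 1796 and 1499 counts in shCtrl against 1086 and 1084 in shFOXK2, which corresponded to 86.8 ± 9.10 and 67.8 ± 11.9 CPM (SD, n = 2 each). Both shFOXK2 libraries were below both controls, but the difference (log2 fold change −0.36, SE 0.25) did not pass the edgeR quasi-likelihood test (adjusted p = 0.257). It was −0.57 without shFOXK2 library 1, −0.22 without shFOXK2 library 2 and −0.04 with an offset for the A content of transcripts, none of them past the threshold. By qRT-PCR and western blot, which were not part of these libraries, the study reports reduced FOXK2 in OVCAR5 cells carrying this hairpin. Of 16417 genes tested, 48.4% differed between the groups at an adjusted p under 0.05, 22.7% being lower and 25.7% higher in shFOXK2. The groups did not overlap for many genes, with both shFOXK2 libraries the lowest of the 4 for 36.3% of the tested genes and the highest for 39.1%. These shares are the background for every count below.

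Markers were examined to see which cells the libraries represented. The 8 epithelial markers were all tested and summed to between 4317 and 5756 CPM in shCtrl libraries and to between 4231 and 5389 in shFOXK2 libraries. Keratin genes made up most of that sum, and the 4 keratins and EPCAM were not called, whereas the other 3 markers, which encode junction proteins, were lower in shFOXK2. CDH1, the E-cadherin gene, fell from 459 and 260 counts to 13 and 24 (log2 fold change −4.02, adjusted p = 5.12e-06), and the claudin genes CLDN3 and CLDN4 had log2 fold changes of −1.96 (0.000237) and −1.02 (0.00601). Of the 7 ovarian serous markers, PAX8 was present with 351, 335, 156 and 162 counts in shCtrl libraries 1 and 2 and shFOXK2 libraries 1 and 2. WT1 had 2, 1, 0 and 1 counts in that order, and EMX2 and SOX17 each had 0, 0, 0 and 3, so these defining serous markers were at or near 0. The 4 serous markers that could be tested all differed, with 3 lower in shFOXK2, namely PAX8 (−0.88, 0.0263), MUC16 (397 and 145 counts against 0 and 8; −5.76, 2.45e-05) and FOLR1 (175 and 153 against 41 and 65; −1.42, 0.00368), and MSLN higher (75 and 52 against 112 and 116; 1.10, 0.0151). The 16 leukocyte and antigen-presenting cell markers summed to between 45.03 and 51.2 CPM in shCtrl and, in the same direction as most class II genes, between 27.6 and 30.9 in shFOXK2. Most of that sum came from CD14, ITGAX, ITGAM and LAPTM5, while FCGR3A, CD1C and FCER1A had 0 counts in every library. PTPRC, the pan-leukocyte gene, had 0, 0, 3 and 0 counts, and MS4A1 had 0, 0, 0 and 1, so the defining leukocyte and B cell markers were at or near 0 in the libraries with the most class II counts. Of the 5 tested leukocyte markers, 2 were lower in shFOXK2, namely CD14 (389 and 358 counts against 124 and 168; log2 fold change −1.14) and ITGAM (161 and 130 against 3 and 22; −3.35), with adjusted p = 0.00566 and 0.000205. Fibroblast markers summed to 18.9 to 20.5 CPM in shCtrl, against 13.9 to 16.8 in shFOXK2, with COL1A2 and DCN at 0 in both shCtrl libraries. COL1A1 gave most of that sum and overlapped between the groups (324 and 215 counts against 226 and 229; 0.03, 0.951), while PDGFRB was lower (127 and 87 against 2 and 8; −4.16, 3.32e-05). Endothelial markers summed to 7.72 to 10.6 CPM in shCtrl, against 0.702 to 2.03 in shFOXK2, and VWF, KDR and TEK had at most 7 counts in any library. The 2 tested endothelial markers were both lower in shFOXK2, PECAM1 with 154 and 90 counts against 9 and 29 (−2.45, 0.000536) and CDH5 with 76 and 33 against 0 and 0, at least 14.6-fold lower (4.19e-05). The part of any of these marker genes in the class II values was not tested. In bulk RNA, fewer cells with a transcript and less of it in each cell cannot be told apart.

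All 9 members passed the filter on low counts. In 8 of them both shFOXK2 libraries were below both shCtrl libraries, and in 1, HLA-DPB1, both were above (36.3% and 39.1% of all tested genes did so). The median log2 fold change of the 9 was −2.32, where the median over all tested genes was 0.04. The differences were uneven. HLA-DRA, CD74 and HLA-DRB1 were nearly gone from the shFOXK2 libraries, HLA-DQB1 and CIITA were at a small part of their control level, HLA-DPA1 and HLA-DMB stood at 45.3% and 45.8% of control, and HLA-DMA and HLA-DPB1 kept most or all of their counts.

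**Figure D1:**
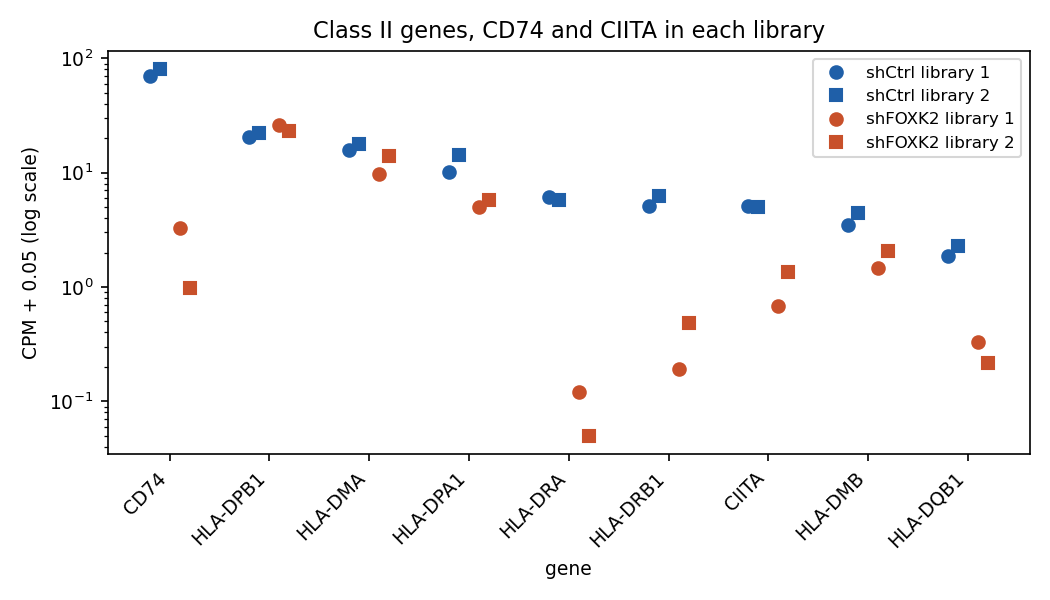
TMM-scaled CPM plus 0.05 on a log axis for the 9 genes, ordered by shCtrl level, with 1 point for each library (blue, shCtrl; red, shFOXK2; circle, library 1; square, library 2). CD74 drops from 70.3 and 80.5 CPM to 3.23 and 0.931, whereas the points of HLA-DPB1 lie close together.

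CIITA, the regulator that the class II promoters have in common, had 112 and 80 counts in shCtrl against 9 and 24 in shFOXK2 (chr16:10866222-10943021, plus strand, hg38). The shCtrl libraries were nearly equal, at 5.01 and 4.98 CPM, and both shFOXK2 libraries were lower, at 0.631 and 1.31 CPM. From 4.995 ± 0.0253 to 0.973 ± 0.483 CPM (SD, n = 2 each), the log2 fold change was −2.32 (SE 0.42). Summed over libraries and scaled by depth, CIITA in shFOXK2 stood at 20.3% of control, with an exact 95% counting interval from 13.6% to 29.5%. Intervals of this kind cover counting error alone. CIITA shares 13578 bases with DEXI on the opposite strand, and the strand setting of the counting was not stated, so some of its counts may belong to DEXI.

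CD74, the invariant chain gene, had the highest control level of the members, also per length, with 1571 and 1294 counts in shCtrl against 46 and 17 in shFOXK2 (chr5:150401637-150412969, minus strand). The mean of 2 libraries was 75.4 ± 7.21 CPM (SD) in shCtrl and 2.08 ± 1.62 in shFOXK2, with a log2 fold change of −5.22 (SE 0.45). The remaining level was 2.60% of control (1.99% to 3.33%). The shFOXK2 libraries themselves were unlike each other and in opposite order for CD74 and CIITA: library 1 held more CD74 and less CIITA, library 2 less CD74 and more CIITA.

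HLA-DRA encodes the alpha chain common to all HLA-DR molecules. Its counts were 137 and 92 in shCtrl against 1 and 0 in shFOXK2 (chr6:32439878-32445046, plus strand), that is 5.93 ± 0.289 CPM in shCtrl, while shFOXK2 was below the floor in both libraries. From summed counts the shFOXK2 level was 0.516% of control, with a wide counting interval from 0.0130% to 2.90%, and the fitted log2 fold change was −7.29 (SE 0.69). HLA-DRB1, a DR beta chain gene and one of the most polymorphic human genes, had 114 and 99 counts in shCtrl against 2 and 8 in shFOXK2 (chr6:32577902-32589848, minus strand). It was 5.63 ± 0.747 CPM in shCtrl and 0.289 ± 0.211 in shFOXK2, a log2 fold change of −4.18 (SE 0.50), or 5.55% of control (2.62% to 10.4%). Both chains of the DR pair were therefore low in the same libraries, without overlap with shCtrl. HLA-DRB1 is nearly identical to HLA-DRB5 and the pseudogene HLA-DRB6 over much of its length, so its share of ambiguous reads is uncertain.

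HLA-DQB1, the DQ beta chain gene, had the lowest shCtrl level of the class II chains among the members, also per length, with 41 and 36 counts in shCtrl against 4 and 3 in shFOXK2 (chr6:32659467-32668383, minus strand). The level was 2.04 ± 0.286 CPM in shCtrl and 0.222 ± 0.0822 in shFOXK2, with a log2 fold change of −3.18 (SE 0.54) and 10.7% of control left (4.18% to 23.2%). Both shFOXK2 libraries were below both controls. Its alpha partner HLA-DQA1 had 12 and 8 counts in shCtrl against 0 and 0 and was too low to be tested. At this depth, shFOXK2 levels of the DQ genes much lower than these could not have been told from 0.

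The DP pair did not move as one. HLA-DPA1, the alpha chain gene, had 226 and 228 counts in shCtrl against 70 and 104 in shFOXK2 (chr6:33064569-33080775, minus strand), whereas HLA-DPB1, the beta chain gene, had 460 and 354 in shCtrl against 375 and 425 in shFOXK2 (chr6:33075990-33089696, plus strand). HLA-DPA1 was 12.2 ± 2.88 CPM in shCtrl and 5.30 ± 0.556 in shFOXK2, a log2 fold change of −1.19 (SE 0.32) and 45.3% of control (37.8% to 54.1%). HLA-DPB1 was 21.3 ± 1.01 and 24.8 ± 2.14 CPM, a log2 fold change of 0.22 (SE 0.26) and 116% of control (105% to 128%). HLA-DPA1 was lower in both shFOXK2 libraries and HLA-DPB1 slightly higher, by less than the SE of its log2 fold change. The 2 genes overlap head to head by 4786 bases on opposite strands, and the gene to which reads from that stretch were counted is not known.

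The HLA-DM genes code for the peptide editor. HLA-DMA had 354 and 286 counts in shCtrl against 138 and 252 in shFOXK2 (chr6:32948613-32969094, minus strand), and HLA-DMB had 76 and 71 in shCtrl against 20 and 37 in shFOXK2 (chr6:32934629-32941028, minus strand). For HLA-DMA the level was 16.8 ± 1.38 CPM in shCtrl and 11.7 ± 2.91 in shFOXK2, a log2 fold change of −0.51 (SE 0.30) and 72.0% of control (63.3% to 81.8%). For HLA-DMB it was 3.91 ± 0.718 and 1.71 ± 0.441 CPM, a log2 fold change of −1.17 (SE 0.39) and 45.8% of control (33.1% to 62.6%). Neither gene's groups overlapped, but shFOXK2 library 2 was closer to the controls than library 1 for both. A readthrough transcript that joins both genes is annotated on the same strand.

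**Figure D2:**
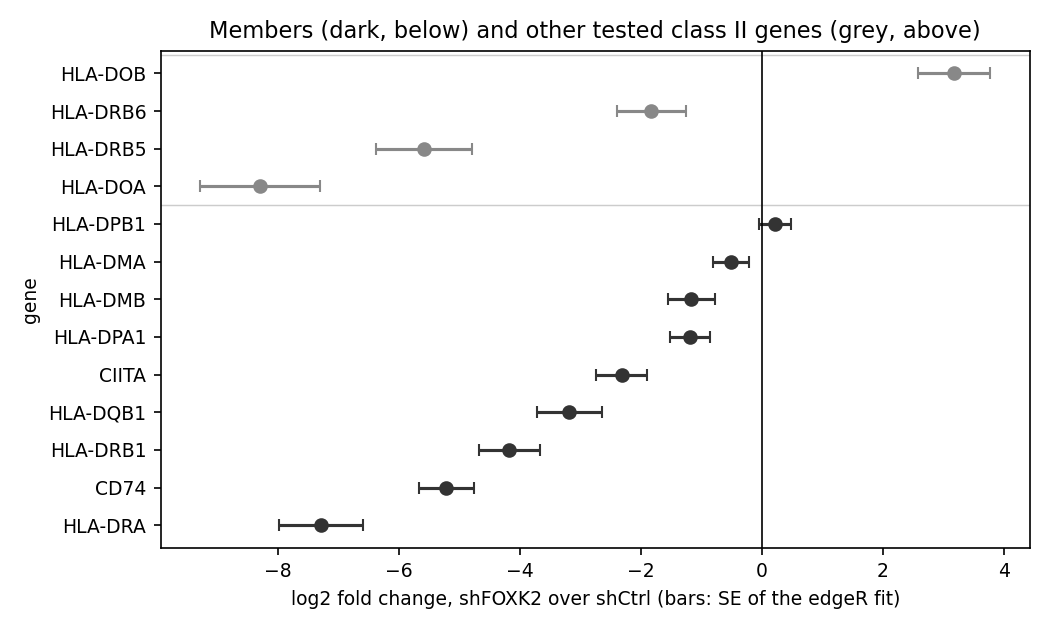
Fitted log2 fold change of shFOXK2 over shCtrl with its SE from the edgeR fit, for the 9 members (dark) and the 4 other class II genes that were tested (grey). Members run from −7.29 for HLA-DRA to 0.22 for HLA-DPB1, and the position of HLA-DOA is not a measured size, since its shFOXK2 counts were 0 and 0.

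In the fit across all genes, 7 of the 9 members were past an adjusted p of 0.05, all of them lower, while HLA-DMA and HLA-DPB1 were not (48.4% of all tested genes were past it, 22.7% being lower). As the members were picked on this contrast, the count carries no evidence about them. The fitted sizes depended on single libraries where few counts were left. HLA-DRA was −6.29 without shFOXK2 library 2. Its fold change cannot be given without shFOXK2 library 1, since the remaining library is at 0. The corresponding value of HLA-DRB1 was −5.28 without shFOXK2 library 2, that of CIITA −2.9997 without shFOXK2 library 2, and that of CD74 −6.35 without shFOXK2 library 1. HLA-DMA was −0.83 without shFOXK2 library 2, and an offset for the adenine (A) content of the transcript brought it to −0.15. The same offset moved HLA-DPB1 to 0.36, and leaving out shFOXK2 library 1 moved it to 0.10. The A content of the members' canonical transcripts ran from 20.6% for HLA-DMA to 27.4% for HLA-DPB1, with a median of 23.4%, against 26.0% over the tested genes. The part of base composition in the members' values was not tested beyond this offset.

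To compare levels between genes, CPM were divided by the length of the canonical transcript in kilobases. In shCtrl, CD74 led with 45.6 ± 4.36 CPM per kilobase, followed by HLA-DMA with 15.4 ± 1.26, HLA-DPA1 with 7.13 ± 1.69 and HLA-DPB1 with 5.34 ± 0.254. HLA-DRA (4.80 ± 0.234) and HLA-DRB1 (4.60 ± 0.611) overlapped between libraries and could not be ordered. HLA-DMB (2.90 ± 0.533) and HLA-DQB1 (1.27 ± 0.178) came next, and CIITA was lowest with 0.311 ± 0.00157 CPM per kilobase over a canonical transcript of 16061 bases. In shFOXK2 the order changed: HLA-DMA (10.7 ± 2.67) and HLA-DPB1 (6.21 ± 0.537) led, followed by HLA-DPA1 (3.11 ± 0.326). CD74 (1.26 ± 0.982) overlapped with HLA-DMB (1.27 ± 0.327), HLA-DRB1 with HLA-DQB1, and CIITA with HLA-DRA. Dividing by the union of annotated exons instead kept CD74 first and CIITA last in shCtrl, but placed HLA-DRA above HLA-DPB1 and HLA-DPA1, and in shFOXK2 the ranges of HLA-DPB1 and HLA-DMA then overlapped.

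The makeup of the class II read counts was then described within each library, as a share of the summed counts of the 9 genes. That sum was 3091 and 2540 for shCtrl and 665 and 870 for shFOXK2, without scaling for depth or for transcript length. The canonical transcript has 3991 bases for HLA-DPB1 and 1093 for HLA-DMA, so these are shares of reads and not of transcripts. CD74 took 50.8% (95% Wilson interval 49.1% to 52.6%) and 50.9% (49.0% to 52.9%) in shCtrl, but 6.92% (5.23% to 9.10%) and 1.95% (1.22% to 3.11%) in shFOXK2. HLA-DPB1 took 14.9% and 13.9% in shCtrl but 56.4% (52.6% to 60.1%) and 48.9% (45.5% to 52.2%) in shFOXK2. The share of HLA-DMA went from 11.5% and 11.3% to 20.8% and 29.0%, and that of HLA-DPA1 from 7.31% and 8.98% to 10.5% and 12.0%. HLA-DRA took 4.43% and 3.62% in shCtrl, then 0.1504% and 0%, where the upper Wilson limit was 0.44%. CD74 was thus the main part of the shCtrl counts, and HLA-DPB1 and HLA-DMA together were the main part of the shFOXK2 counts. The intervals of the groups were far apart for CD74 and HLA-DPB1, and the 2 shFOXK2 libraries differed from each other for CD74 by more than counting error.

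**Figure D3:**
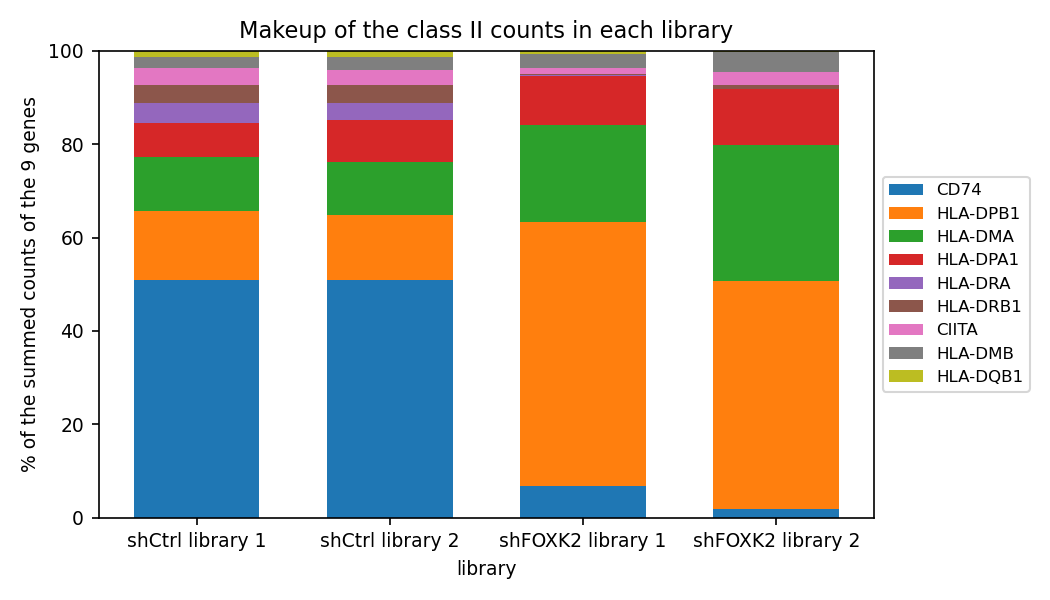
Share of each gene in the summed counts of the 9 members, as stacked bars that start at 0 and reach 100%, for each of the 4 libraries. The bottom segment, CD74, takes 50.8% and 50.9% in shCtrl and 6.92% and 1.95% in shFOXK2.

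Within pairs, the alpha chain gene's share of the pair's counts was compared between libraries. For DP, HLA-DPA1 took 32.9% (29.5% to 36.5%) and 39.2% (35.3% to 43.2%) in the controls, compared with 15.7% (12.6% to 19.4%) and 19.7% (16.5% to 23.3%) in shFOXK2. For DM, HLA-DMA took 82.3% and 80.1% in shCtrl and 87.3% and 87.2% in shFOXK2, with Wilson intervals that overlapped. For DR, HLA-DRA took 54.6% and 48.2% in shCtrl, and in shFOXK2 it accounted for 1 of 3 and 0 of 8 counts. Too few DR counts remained to say how the pair was balanced.

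Class II genes outside the 9 were examined from a list of 13, of which 11 were in the count tables and 4 could be tested. HLA-DRB5, a second DR beta gene, had 42 and 28 counts in shCtrl against 1 and 0 in shFOXK2, 1.69% of control with a counting interval from 0.0421% to 9.72% (adjusted p = 0.000103). The transcript of HLA-DRB6 fell from 19 and 26 counts to 3 and 8, with a log2 fold change of −1.83 (SE 0.57) and adjusted p = 0.0175. The call for HLA-DRB6 was lost by DESeq2 (adjusted p = 0.114), with the A-content offset (0.0505) and when either shCtrl library 2 (0.21) or shFOXK2 library 1 (0.0547) was left out. HLA-DOA encodes the alpha chain of HLA-DO, an inhibitor of HLA-DM, and had 46 and 38 counts in shCtrl but none in either shFOXK2 library, which is at least 11.8-fold lower when shFOXK2 is set at the floor of 3 counts per library (adjusted p = 4.37e-05). Its partner HLA-DOB moved the other way, from 2 and 4 counts to 18 and 31 (log2 fold change 3.18, SE 0.59, adjusted p = 0.000737), and overlaps an annotated readthrough transcript on the same strand. Thus 3 of the 4 tested genes fell and 1 rose, with a median log2 fold change of −3.70, or −2.69 with HLA-DOA at its bound. Each of the 4 had fewer than 10 counts in every library of its lower group and passed the filter through its higher group. At this level the filter favoured genes that differ, so the count of calls carries no evidence about the list. HLA-DQA2 (6 and 3 counts) and HLA-DQB2 (10 and 7) were seen in shCtrl and had 0 counts in shFOXK2, while HLA-DPA2, HLA-DPB2 and HLA-DQB1-AS1 had 0 counts in all 4 libraries. Without a filter 7 genes of this list were called, and none of them was left for testing when 10 counts in every library were required.

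The factors that hold CIITA at class II promoters and their coactivators made up a list of 13 genes, all tested, of which 4 fell, 2 rose and 7 were not called (median log2 fold change −0.37), shares not far from the 22.7% lower and 25.7% higher among all tested genes. RFX5, the DNA-binding subunit of the RFX complex, had the largest change of the list: 1429 and 1052 counts in shCtrl against 243 and 303 in shFOXK2, or 64.7 ± 1.05 against 16.8 ± 0.319 CPM (log2 fold change −1.94, SE 0.26, adjusted p = 6.52e-05). The other RFX subunits had values of −0.37 (RFXANK, adjusted p = 0.248) and −0.03 (RFXAP, 0.948). NLRC5, a relative of CIITA that acts on MHC class I promoters, fell by 1.33 on the log2 scale (adjusted p = 0.00393). CARM1, a coactivator that methylates histones, fell by 0.88 (0.0184), a call lost without shFOXK2 library 2 (0.183) and with the A-content offset (0.0572). The NF-Y subunits, which bind the Y box, differed in direction: NFYA was lower (−0.65, 0.0497), NFYB higher (0.86, 0.0208) and NFYC not called (−0.08, 0.805). Neither NF-Y call was firm, since NFYA lost its call with the replicate number as a block (0.103), with the A-content offset (0.079) and without shCtrl library 1 (0.106), shFOXK2 library 1 (0.0668) or shFOXK2 library 2 (0.261), and NFYB lost it with the offset (0.258) and without shCtrl library 2 (0.131) or shFOXK2 library 2 (0.0752). CREB1, which binds next to RFX, was higher (1.10, 0.0131), but its shCtrl libraries differed, at 653 and 226 counts, its value was 1.69 without shCtrl library 1 and 0.66 with the offset, and the call was lost without shCtrl library 2 (0.59, 0.12).

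The route from interferon gamma to CIITA runs through the receptor IFNGR1 and IFNGR2, the kinases JAK1 and JAK2, and IRF1. Of 11 tested genes of this pathway, 7 fell, 1 rose and 3 were not called (median log2 fold change −1.06), again beside 22.7% and 25.7% over all tested genes. IFNG itself had 0, 0, 1 and 0 counts, so no interferon gamma transcript was detectable above the floor at this depth in either group. IFNGR2 went from 2687 and 2155 counts to 511 and 692, and IFNGR1 from 1411 and 668 to 365 and 460, log2 fold changes of −1.78 (adjusted p = 8.33e-05) and −1.04 (0.00714). JAK1 fell by 1.63 on the log2 scale (0.000146) and IRF1 by 1.06 (0.00334), and IRF2, which also binds the CIITA promoter, had a log2 fold change of −1.34 (0.00184). Both shFOXK2 libraries were below both controls for each of these 5 genes. SOCS1, a feedback inhibitor of JAK kinases, fell from 234 and 216 counts to 40 and 28 (−2.47, 0.000189), and PTPN2, a phosphatase that acts on JAK1, rose from 764 and 444 to 935 and 1339 (1.17, 0.00213). JAK2 had 215 and 55 counts in shCtrl against 132 and 164 in shFOXK2, so its groups overlapped (0.47, 0.366), and it passed the test in 1 of the alternatives run, that without shCtrl library 1 (1.38, 0.00888).

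Transcriptional repressors and silencing enzymes that act on CIITA or on chromatin were listed as 9 genes, all tested, of which 3 fell and 5 rose (median log2 fold change 0.82). Over all tested genes 22.7% were lower and 25.7% higher. PRDM1, which encodes the CIITA repressor BLIMP1, fell from 1125 and 589 counts to 75 and 127 (−2.83, SE 0.31, adjusted p = 1.65e-05). The Polycomb repressive complex genes SUZ12 (2.17, 0.00026), EED (1.40, 0.000691) and EZH2 (1.27, 0.00117), which together place the repressive H3K27 methyl mark, were higher in shFOXK2. SUZ12 had 1058 and 315 counts in shCtrl against 2225 and 2645 in shFOXK2, so the control libraries were again unlike each other but did not overlap with shFOXK2. With the A-content offset SUZ12 was 1.43 (0.00154) and EZH2 0.71 (0.0143), both still past the threshold.

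Genes for endosomal processing, where CD74 is cut and peptides are made, were also listed. Of 13 tested, 6 fell, 0 rose and 7 were not called (median log2 fold change −0.61). The background over all tested genes was 22.7% lower and 25.7% higher. CTSS, the main protease for the last step of CD74 cleavage in antigen-presenting cells, fell from 109 and 100 counts to 8 and 17 (−2.85, SE 0.42, adjusted p = 0.000146). CTSF, which can perform the same step, fell from 393 and 318 to 13 and 25 (−4.01, SE 0.37, 4.73e-06), and CTSB and CTSH fell by 1.61 (0.000116) and 1.08 (0.00316). CTSL, which takes that role in thymic epithelium in the mouse, had overlapping groups (0.36, 0.327), with −0.16 without shFOXK2 library 1 and 0.69 without shFOXK2 library 2, and it passed as higher when the A-content offset was used together with the replicate block (0.54, 0.0238). LGMN, an endopeptidase that starts CD74 cleavage, had a value of −0.61 (0.0584), and it was past the threshold by DESeq2 (0.042), without a filter (0.0333) and without shCtrl library 1 (0.0364) or shFOXK2 library 1 (0.0446). IFI30, the lysosomal thiol reductase gene, had 1, 4, 5 and 6 counts and overlaps another annotated transcript, so its level is uncertain.

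Among 14 trafficking and turnover genes, 8 fell, 1 rose and 5 were not called (median log2 fold change −0.68), beside 22.7% lower and 25.7% higher over all tested genes. Without shFOXK2 library 2, 5 of the 14 were called. MARCHF1 and MARCHF8 encode related membrane ubiquitin ligases, and they moved in opposite directions. MARCHF1 was higher, from 11 and 3 counts to 33 and 51 (2.82, SE 0.50, adjusted p = 0.000549), and MARCHF8 lower, from 1035 and 672 to 99 and 156 (−2.50, SE 0.28, 2.14e-05). MARCHF1 was at 0.492 and 0.187 CPM in shCtrl and passed the filter through its shFOXK2 libraries. At this level the filter favoured genes that differ, so its call carries little evidence. The MARCHF1 value was 1.51 with the A-content offset (0.0226) and ran from 2.29 to 3.69 with single libraries left out. The tetraspanins CD82 (−2.05, 7.35e-05) and CD9 (−1.88, 5.11e-05), which associate with class II molecules in membranes, fell.

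CD74 is also a receptor for the cytokine MIF and signals with CD44. CD44 was abundant and overlapped between groups, with 25360 and 17850 counts in shCtrl against 18791 and 16562 in shFOXK2 (−0.01, SE 0.25, adjusted p = 0.976). Its sign changed under 3 of the alternatives run, and it passed the test in none of them. MIF had 5, 7, 6 and 14 counts, which are uncertain since it overlaps other annotated transcripts, and of the 6 genes of this list CD44 was the one that could be tested.

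T cells need further contacts beside class II, and 13 such ligand genes were listed, of which 8 were tested, 6 fell and 0 rose (median log2 fold change −1.21). The background was again 22.7% lower and 25.7% higher. ICAM1, the adhesion ligand of the T cell integrin LFA-1, fell from 11782 and 9373 counts to 230 and 195 (555 ± 39.5 to 13.4 ± 3.86 CPM, −5.37, SE 0.30, adjusted p = 2.19e-07). LGALS9 (−2.28, 0.000184), TNFSF9 (−1.34, 0.00129) and CD276 (−1.31, 0.000526) also fell. The costimulatory genes CD80 and CD86 had at most 2 counts in any library, so neither was detectable above the floor in control cells.

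**Figure D4:**
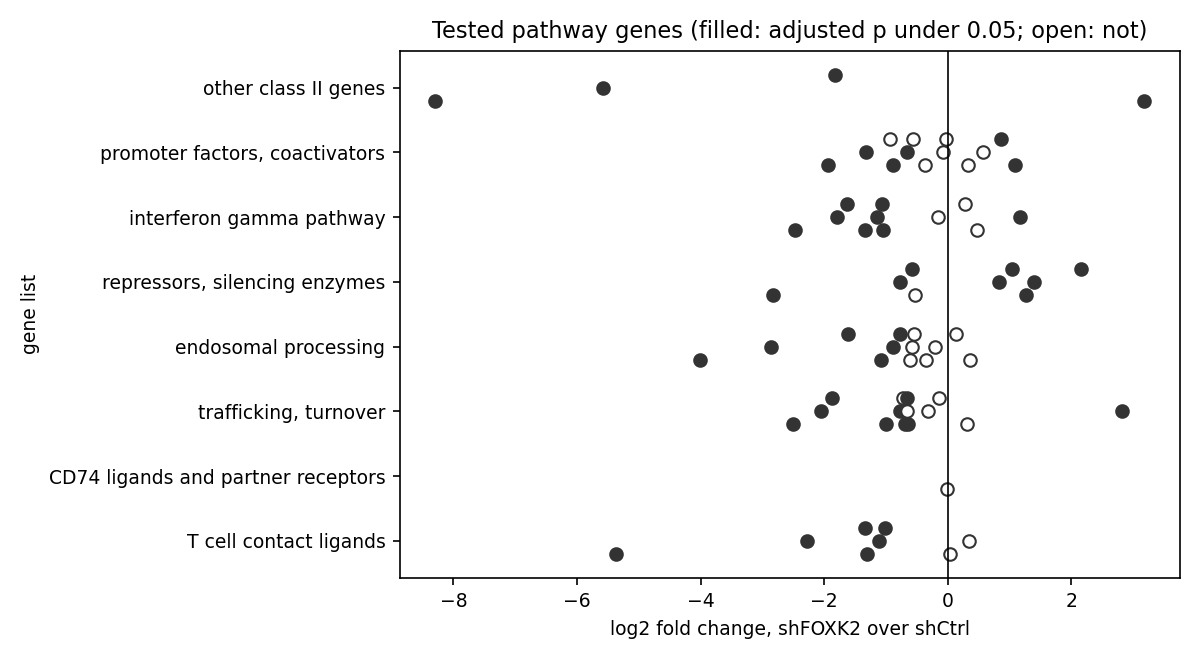
Log2 fold change of shFOXK2 over shCtrl for each tested gene of 8 lists (filled, adjusted p under 0.05 in the edgeR test; open, not). Of the interferon gamma pathway 7 genes fell and 1 rose, and of the repressors 3 fell and 5 rose. The leftmost point, HLA-DOA, had 0 counts in shFOXK2 and no measured size.

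Genes near the members were compared to see how the class II region moved as a whole. Within 500 kb of the class II members on chromosome 6, 50 other genes were tested, of which 18 fell, 5 rose and 27 were not called (median log2 fold change −0.52). Over all tested genes 22.7% were lower and 25.7% higher, and 48.4% were called in either direction, so the share called here was near the background. The largest falls beside HLA-DOA and HLA-DRB5 were those of CFB, complement factor B, with 314 and 216 counts against 4 and 8 (−5.20, adjusted p = 2.13e-06), and of C4A (21 and 20 against 3 and 0; −3.44, 0.00289), whose reads are shared with its near copy C4B and whose fold change cannot be given without shFOXK2 library 1, since the remaining library is at 0. TAP1 and PSMB9, which serve MHC class I presentation and lie between the DQ and DM genes, fell, with log2 fold changes of −2.36 (5.65e-05) and −2.58 (1.72e-05). TAP2, next to TAP1, had a value of 0.05 (0.895), and BRD2, next to HLA-DMA, of 0.43 (0.147). C4A passed the filter through its shCtrl libraries, at a level where the filter favoured genes that differ. Falls were interspersed with rises and with genes that were not called.

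**Figure D5:**
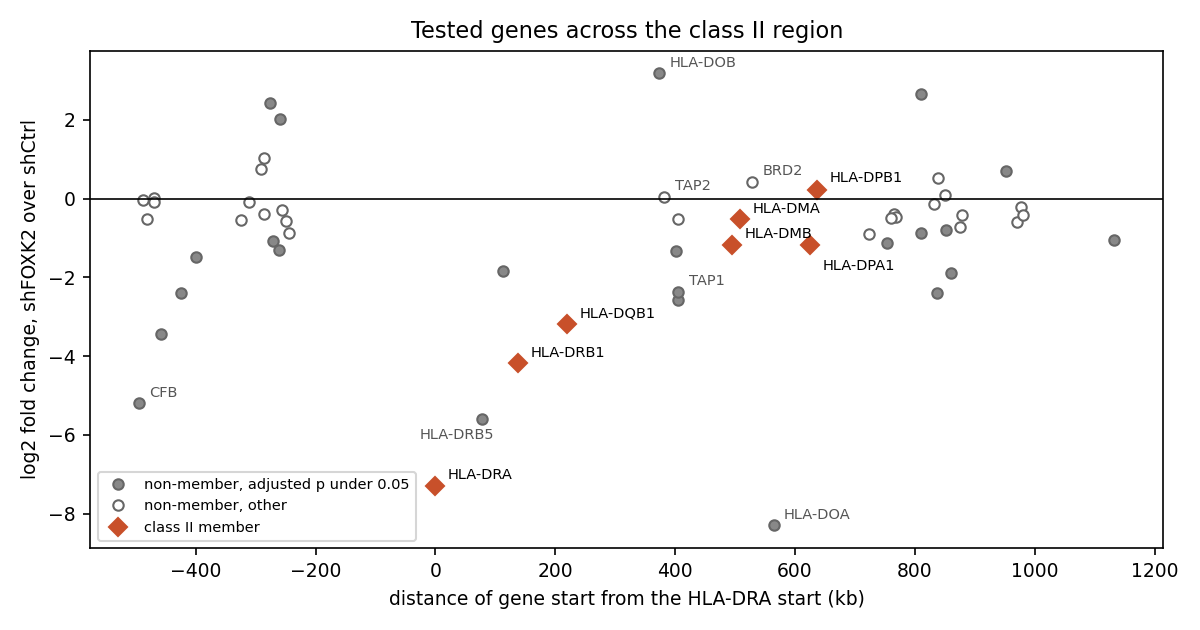
Log2 fold change of shFOXK2 over shCtrl against the distance of each tested gene's start from that of HLA-DRA in kilobases (diamonds, members; grey filled circles, other genes with an adjusted p under 0.05; open circles, other genes). Members run from −7.29 at HLA-DRA to 0.22 at HLA-DPB1, and 27 of the 50 other genes were not called.

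Around CIITA, 7 genes were tested, of which 1 fell and 2 rose (median log2 fold change 0.49). The background for these genes and for those around CD74 was 22.7% lower and 25.7% higher. SOCS1 was the gene that fell. TVP23A passed the filter through its shFOXK2 libraries, at a level where the filter favoured genes that differ. TVP23A rose from 9 and 1 counts to 18 and 35 (2.63, adjusted p = 0.00303; 4.49 without shCtrl library 1) and RMI2 from 373 and 341 to 441 and 770 (0.95, 0.0126), the latter losing its call without shCtrl library 1 (0.0533) or shFOXK2 library 2 (0.137). Around CD74, 5 of 15 tested genes fell, 2 rose and 8 were not called (median log2 fold change −0.29), with PDGFRB (−4.16, 3.32e-05), SYNPO (−3.82, 7.54e-07) and ARSI (−2.62, 0.000447) lower and TCOF1 higher (2.53, 9.11e-06).

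The 5 tested genes whose pattern over the 4 libraries was nearest to the median of the members, by Euclidean distance of centred log2(CPM + 1), were SAMD11, PTPN1, ERG28, OPLAH and TXNDC15, at distances from 0.0818 to 0.0916. Their log2 fold changes ran from −1.38 to −1.22, nearer to 0 than the members' median of −2.32. With a pseudocount of 0.25 the nearest genes were ALG1L, FKBP9P1, MBTPS1, THRA and CBLN3, and 0 of the 5 were shared, so this ranking depends on the scale.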

How the data were processed

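RNA-seq gene counts of 2 shCtrl and 2 shFOXK2 OVCAR5 libraries were used, grouped by their titles. Polyadenylated RNA was made into libraries with a NEBNext Ultra II kit. The deposited values are raw counts of reads for each gene symbol, 1 table a library, which the authors did not normalize. The submitters' processing notes name STAR 2.5.2, HTSeq, edgeR and GRCh38. The strand setting and annotation of the counting are not given in the sources used here. HTSeq usually drops reads with several best places, which lowers near-identical paralogs such as the HLA-DRB genes.

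Genes were filtered with filterByExpr, scaled with TMM and compared by the 2-sided quasi-likelihood F test of edgeR 4.0.16 (R 4.3.3) with Benjamini-Hochberg adjustment over 16417 genes and a threshold of 0.05. Every adjusted p comes from this fit unless another is named. The SE is the log2 fold change divided by the root of F. With 2 libraries against 2, a permutation of labels cannot reach 0.05, so p-values rest on variance shared between genes. Shares have Wilson and ratios of counts exact 95% intervals. These and the floor of 3 counts cover counting error alone, since PCR copies are not independent molecules. Replicates were not copies of one library (chi-square 36.4 and 24.8 per gene). On simulated data with 200 changed genes, all given large changes, 93% were recovered and 4.62% of calls were false (15872 genes). These rates do not cover smaller changes such as that of FOXK2, nor a comparison in which as many genes differ as here.

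Positions and lengths came from GENCODE v44 (hg38), to which 37194 symbols (65.6%) were matched, and promoters from RefSeq (GRCh38.p14). An A content was available for 14503 tested genes (88.3%). The A-content offset used lowess with a span of 0.2. The members, lists and alternatives were chosen with earlier results of these data known. Named were the members, FOXK2, the core genes of the pathway, up to 4 called genes with the largest change in each list or neighbourhood, and the 5 genes nearest in pattern; TAP2, BRD2, HLA-DQA2, HLA-DQB2, HLA-DPA2, HLA-DPB2, HLA-DQB1-AS1, CD80, CD86, IFNG and the markers were named after their values were seen. Some genes of the lists are counted but not reported here by name.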

Additional observations from a re-analysis of the deposited data

How the results depend on the processing

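In every alternative that kept a member, its log2 fold change kept its sign. The members' median (−2.32) was −1.12 when 10 counts were required in every library, which left 5 of the 9 genes, −1.96 with the A-content offset and −2.01 with that offset and the replicate block, and ran from −2.85 to −1.94 with single libraries left out. Under the replicate block (titles' numbers) the median was −2.38, FOXK2 was −0.36 (adjusted p = 0.39; −0.04 and 0.888 when the offset was added) and 7270 genes passed instead of 7940. The block lost the call of NFYA (adjusted p = 0.103) and the counts of list genes stayed within 1.5 times. Same-numbered libraries did not deviate together (correlation −0.113), so the numbers are not known to pair cultures. With crossed numbers, added after seeing the data, 8350 genes passed. Over the other settings the count ran from 6008 to 9207, and from 6771 to 7775 with single libraries left out. Calls among other class II genes (4) were 7 without a filter and 0 with 10 counts in every library, which removed the 4 genes, and 3 to 4 with single libraries left out. Neighbours called (33) were 21 with that filter. Trafficking genes called (9) were 5 to 11 with single libraries left out. Signs changed for CD44 (0.0222 by library size, 0.0339 with 10 counts in every library, −0.33 to 0.20 with single libraries left out), CTSL (−0.16 to 0.69 with single libraries left out), JAK2 (−0.31 and −0.23 with the A-content offset without and with the block, −0.15 to 1.38 with single libraries left out), NFYC (0.26 with the offset, with and without the block) and RFXAP (0.0007 by library size, 0.0158 with 10 counts, 0.0255 and 0.0309 with the offset without and with the block, −0.26 to 0.11 with single libraries left out). Among these genes, JAK2 passed without shCtrl library 1 and CTSL passed with the A-content offset and the block together (0.54, adjusted p = 0.0238); the values with a changed sign did not pass. The cause was not tested. The A-content offset raised the median of all genes by 0.17 and the absence of a filter lowered it by 0.10. Genes that remained at 10 counts or fewer in shFOXK2 (HLA-DRA, HLA-DRB1, HLA-DQB1) are limited by depth, and their fold changes are imprecise.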
